A study of Rattus norvegicus with 18 samples.

Results

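Solute carrier genes, named Slc with a family number, were described in rat hippocampus across 18 arrays. A gene was taken where a probe set (a group of short oligonucleotides for 1 transcript) had a single Slc symbol in the platform annotation and a mean log2 signal at or above the 40th percentile of all probe sets (5.78). The probe set with the highest mean stood for its gene, and the glucose transporter Slc2a1 and the glial glutamate transporters Slc1a2 and Slc1a3 were left out by the same rule. It gave 137 of the 228 solute carrier genes on the array. Just inside the limit lay Slc25a45 at 5.81, Slc12a7 and Slc14a1 at 5.82 and Slc18a2 at 5.83. Just outside lay Slc45a3 at 5.78, Slc27a3 at 5.77, Slc4a1 at 5.75 and Slc41a3 at 5.73. Of the 137, Slc4a1ap and Slc7a6os carry the name of a partner or neighbouring gene and are not transporters. Genes were grouped into classes mainly by family number, so a class name need not describe every gene in it.

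The study asked about learning after fetal exposure to alcohol in rats, and 1 array was hybridised with total RNA of each hippocampal sample. Samples came from 3 diets: an alcohol diet, an isocaloric diet (by its name, of matched energy) and a control diet. Within each diet they were either trained in a procedure that the labels abbreviate as CFC or naive. The alcohol diet had 4 trained and 4 naive arrays, the isocaloric diet 4 trained and 2 naive, and the control diet 2 of each. Strain, age, sex, the dose of alcohol and the time after training are not given in the sources used here. The labels do not say that replicates were separate animals or which shared a litter, so a p-value reflects only how these samples vary, and some of that may be technical.

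Solute carriers are membrane proteins that move amino acids, sugars, ions, metals, nucleotides and vitamins across the plasma membrane and the membranes of organelles, most often by coupling the substrate to a gradient of sodium, protons or a counter-substrate. In the hippocampus they load synaptic vesicles with transmitter, clear transmitter after release, set chloride, calcium and pH in neurons and glia, and supply mitochondria. In the capillary wall they carry nutrients across the blood-brain barrier. In whole tissue, fewer cells of a type and less RNA per cell cannot be told apart.

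Promoter sequences are given for 4 genes with which the diet comparisons below begin: the taurine transporter Slc6a6, the cationic amino acid transporter Slc7a1, the large neutral amino acid transporter Slc7a5 and the sodium-coupled bicarbonate transporter Slc4a10. The first 3 were higher on arrays of both the alcohol and the isocaloric diet than on control arrays, and Slc4a10 was lower on arrays of the alcohol diet. Each sequence is the 250 bases before the annotated transcription start in RefSeq's GRCr8 assembly, read 5′ to 3′ on the gene's own strand. They lie at chr4:125752252-125752501 on the plus strand (Slc6a6), chr12:11664238-11664487 on the plus strand (Slc7a1), chr19:66872413-66872662 on the minus strand (Slc7a5) and chr3:67073653-67073902 on the plus strand (Slc4a10). Capitals mark matches, on either strand, to the GC box GGGCGG, the CCAAT box CCAAT and the E box CACGTG.
Slc6a6: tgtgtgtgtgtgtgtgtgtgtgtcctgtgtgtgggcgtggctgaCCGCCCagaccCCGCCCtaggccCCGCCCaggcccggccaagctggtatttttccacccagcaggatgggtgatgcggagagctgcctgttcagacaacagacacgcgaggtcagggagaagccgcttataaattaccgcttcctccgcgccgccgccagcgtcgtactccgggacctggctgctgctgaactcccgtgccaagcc
Slc7a1: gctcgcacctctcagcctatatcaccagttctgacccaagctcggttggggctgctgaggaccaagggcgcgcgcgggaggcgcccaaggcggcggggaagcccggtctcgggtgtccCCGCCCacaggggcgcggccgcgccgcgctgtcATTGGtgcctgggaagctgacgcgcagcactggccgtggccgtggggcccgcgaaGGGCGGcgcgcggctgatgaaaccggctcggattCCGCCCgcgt
Slc7a5: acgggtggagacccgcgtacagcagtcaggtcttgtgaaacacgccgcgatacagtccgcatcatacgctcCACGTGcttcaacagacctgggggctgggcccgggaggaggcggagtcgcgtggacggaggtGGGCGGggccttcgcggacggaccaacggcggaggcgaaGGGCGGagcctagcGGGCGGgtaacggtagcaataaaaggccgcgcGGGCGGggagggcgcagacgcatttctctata
Slc4a10: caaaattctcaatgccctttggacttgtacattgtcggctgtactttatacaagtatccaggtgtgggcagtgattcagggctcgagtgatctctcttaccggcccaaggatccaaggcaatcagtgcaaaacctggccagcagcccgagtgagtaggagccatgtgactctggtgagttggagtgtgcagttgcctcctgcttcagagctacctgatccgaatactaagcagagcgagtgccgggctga

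The GC box occurred 3 times before Slc6a6, 3 times before Slc7a1 and 4 times before Slc7a5, and 0 times in the window of Slc4a10. The CCAAT box occurred once, in reverse orientation, before Slc7a1, and the E box once before Slc7a5. The composite element of ATF4 and C/EBP factors, TTGCATCA, and the cAMP response element, TGACGTCA, were searched on both strands too, and their letters were in none of the 4 windows. The GC box was in 62.93% of the 116 solute carrier promoters available and in 32.39% of all 27457. The 116 belong to genes on the array that passed the signal filter, while the 27457 were not filtered. These shares and those below thus compare unlike sets and do not set solute carriers apart from other genes past the filter. The E box was in 11.21% against 5.79%, the CCAAT box in 37.93% against 34.29%, the ATF4 and C/EBP element in 0.86% against 0.66% and the cAMP response element in 2.59% against 1.7%. The median GC content was 62.4% for solute carrier promoters and 52% for all. GC content was 64.0% for Slc6a6, 73.2% for Slc7a1, 66.8% for Slc7a5 and 52.4% for Slc4a10. These matches are a description of letters and not of binding.

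The summed signal of an array was between 2.92e+06 and 3.13e+06. Log2 values of 2 arrays correlated at 0.965 to 0.982 within groups and at no less than 0.949 anywhere, with 0 identical pairs. Control trained replicate 2 and control naive replicate 1 were the samples whose processing notes name MAS5, and each control comparison is also given without them. On 4 arrays Ttr, a transcript of the choroid plexus, was more than 3 log2 units above its median (alcohol trained replicate 4, alcohol naive replicate 2, isocaloric trained replicate 3 and control trained replicate 1), and on another 2 it was more than 1 unit above. Of 14 choroid plexus markers, 8 were measured, and their summed signal ran from 830 to 1.17e+04 on alcohol arrays, 828 to 1.05e+04 on isocaloric arrays and 901 to 1.09e+04 on control arrays. Of 14 markers of endothelial and mural cells 4 were measured, Cldn5, Esam, Flt1 and Rgs5, and their summed signal was 450 to 563 on alcohol, 475 to 539 on isocaloric and 204 to 240 on control arrays. The smallest signal of any of the 4 on any array was 22.9, so none was at 0.

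Against the control diet, arrays of the alcohol diet showed higher signal of the taurine transporter Slc6a6, of 5 of 15 amino acid and peptide transporters and of 5 of 24 mitochondrial carriers. The 4 genes with lower signal were Slc4a10 and Slc4a4, which move bicarbonate, the sodium-calcium exchanger Slc8a1 and the peptide transporter Slc15a2, and of these Slc4a4 took the opposite sign on its second probe set. At an adjusted p under 0.05 (limma, Benjamini-Hochberg over 9520 probe sets), 13 of the 137 genes rose and 4 fell, 12.4% in all. The share among all probe sets tested was 19.9%, with 11.3% higher and 8.61% lower, so the count is no result about solute carriers as a group. At an unadjusted p under 0.05 there were 30 genes, and 33.6% of all probe sets. The median log2 difference was 0.04 over the 137 genes and -0.00 over all probe sets.

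The largest rise was that of Slc6a6, which takes up taurine, an osmolyte of brain cells, at the plasma membrane and at the blood-brain barrier. Its log2 signal was 6.86 and 7.14 on the control trained arrays and 6.69 and 5.47 on the control naive arrays. On the alcohol arrays it ran from 7.31 through a median of 7.51 to 7.78, and on the isocaloric arrays from 7.35 through 7.62 to 7.77. No array of either diet overlapped with a control array, and control naive replicate 2 stood lowest by more than 1 unit. The log2 difference between the alcohol and the control diet was 0.98 (SE 0.16, adjusted p = 0.000612, 8 of 8 arrays). Such counts of arrays, here and below, compare each array with the control mean of the same training state. A difference of 1 on this scale is 2-fold. A second probe set of the gene gave 0.43 (adjusted p = 0.00802).

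Slc7a1, which carries arginine and lysine, stood at 6.78 and 6.80 on the control trained and at 6.57 and 6.24 on the control naive arrays. Its alcohol arrays ran from 6.92 through 7.21 to 7.46 and its isocaloric arrays from 6.89 through 7.31 to 7.48. The lowest alcohol and isocaloric arrays were above the highest control array. The log2 difference was 0.61 (SE 0.11, adjusted p = 0.00182), and a second probe set gave 0.94 (adjusted p = 0.000247).

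Slc7a5 is the light chain of the LAT1 exchanger, which carries leucine, phenylalanine and other large neutral amino acids across the blood-brain barrier. Its 4 control arrays lay close together, at 6.20, 6.13, 6.25 and 6.10. The alcohol arrays ran from 6.20 through 6.79 to 7.09, and alcohol trained replicate 1 alone lay within the control range. The log2 difference was 0.58 (SE 0.10, adjusted p = 0.00136). Slc3a2, the heavy chain that pairs with Slc7a5, did not pass, at 0.09 (SE 0.06, adjusted p = 0.26).

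Slc3a1, the heavy chain of cystine and basic amino acid transport, stood at 9.06 and 9.51 on the control trained and at 9.79 and 8.94 on the control naive arrays. The alcohol arrays ran from 9.79 through 10.23 to 10.47 and just cleared the control range. The log2 difference was 0.89 (SE 0.14, adjusted p = 0.000549). In the RefSeq annotation the gene overlaps Prepl, a peptidase gene on the opposite strand, and the positions of the array's oligonucleotides were not used here, so which exons they match was not tested. Prepl's own probe set differed by 0.19 (adjusted p = 0.146).

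Of the 15 amino acid and peptide transporters measured, 5 rose, 1 fell and 9 did not pass, beside 19.9% of all probe sets that passed. Of the 15 differences 13 were above 0, with a median of 0.09. These genes share the same arrays, and the count of signs was not tested. Beside the 3 above, Slc38a3, a glutamine transporter of astrocytes, rose by 0.51 (SE 0.14, adjusted p = 0.0214, 7 of 8 arrays), and Slc38a10, of the same family, by 0.30 (adjusted p = 0.0483). Slc38a1 and Slc38a2, which take up glutamine in neurons, stood at 0.03 (adjusted p = 0.857) and -0.15 (adjusted p = 0.41). The one fall was that of Slc15a2, which takes up small peptides with protons. It stood at 8.14 and 8.19 on control trained and at 7.96 and 8.20 on control naive arrays, and from 7.45 through 7.78 to 8.02 on alcohol arrays, where alcohol naive replicate 1 overlapped with the control range. Its log2 difference was -0.37 (SE 0.09, adjusted p = 0.00878).

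**Figure D1:**
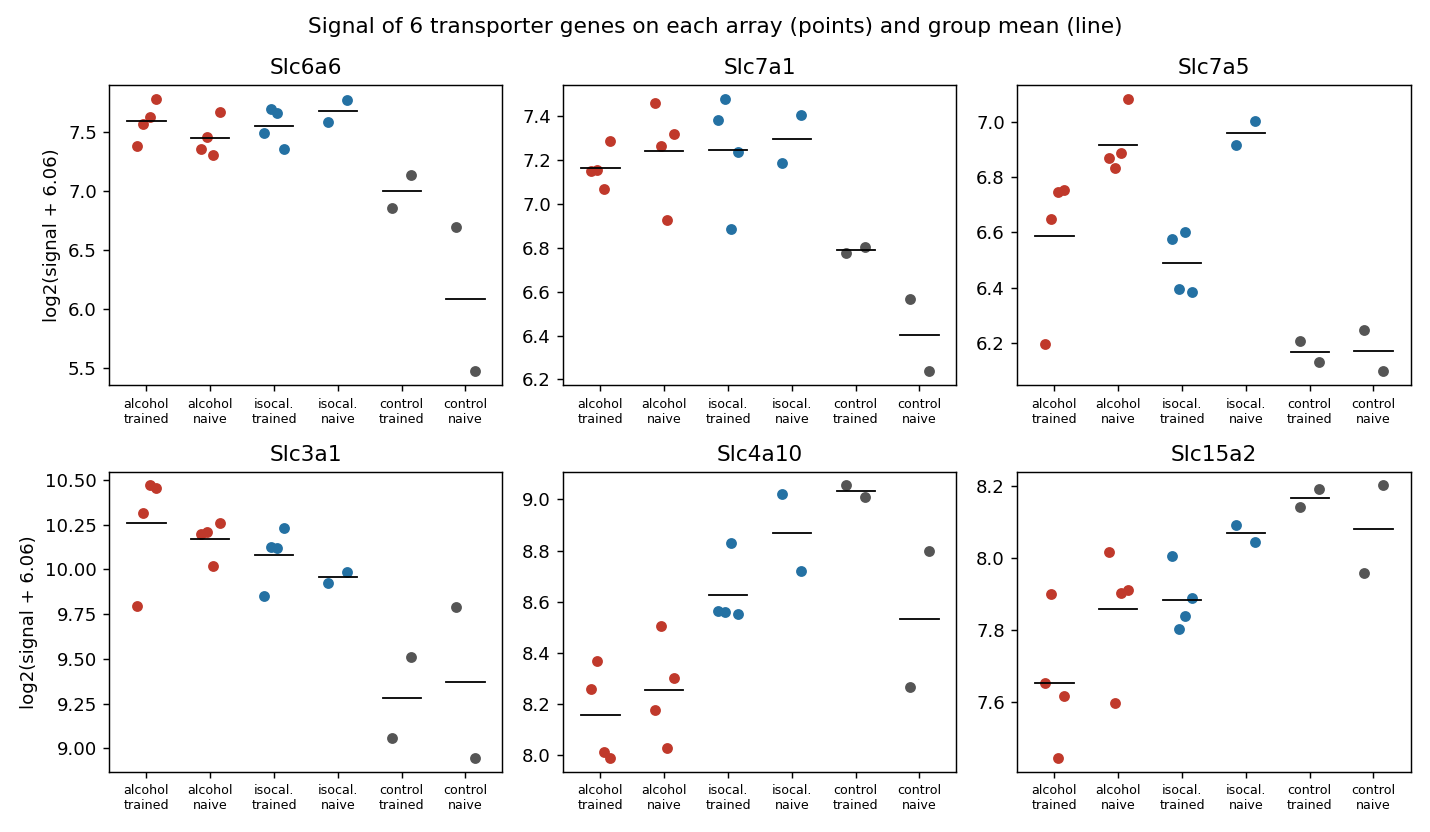
Log2 signal (log2 of signal + 6.06) of Slc6a6, Slc7a1, Slc7a5, Slc3a1, Slc4a10 and Slc15a2 on each of the 18 arrays, by diet and training; each point is 1 array and each line the mean of a group of 2 or 4. The control points of Slc6a6, Slc7a1 and Slc3a1 lie below every alcohol and isocaloric point, while for Slc4a10 the alcohol points, 7.99 to 8.51, lie below every isocaloric point and below all control points but 1.

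Among sodium-coupled transporters of transmitters and related solutes, Slc6a6 was the only one of 8 that passed by its chosen probe set. The creatine transporter Slc6a8 stood at 0.19 (adjusted p = 0.147), the glycine transporter Slc6a9 at 0.25 (SE 0.09, adjusted p = 0.051) and the neuronal glutamate transporter Slc1a1 at 0.18 (adjusted p = 0.113). A second probe set of Slc6a8 passed, at 0.28 (adjusted p = 0.0289). Further probe sets of Slc6a9 stood at 0.08 (adjusted p = 0.695) and 0.09 (adjusted p = 0.491), and that of Slc1a1 at 0.16 (adjusted p = 0.145). Of the 4 vesicular transporters 1 passed: Slc17a7, which loads glutamate into vesicles of pyramidal and granule cells, rose by 0.39 (SE 0.10, adjusted p = 0.012, 8 of 8 arrays). Its control arrays stood at 10.71 and 10.83 (trained) and at 10.75 and 10.28 (naive), and its alcohol arrays ran from 10.74 through 11.06 to 11.30, so the groups overlapped. A second probe set of Slc17a7 gave a larger rise, 1.11 (adjusted p = 5.42e-05). Slc17a6, which loads glutamate in other neurons, stood at -0.26 (adjusted p = 0.234), Slc32a1, which loads GABA and glycine, at 0.25 (adjusted p = 0.101) and the monoamine loader Slc18a2 at -0.20 (adjusted p = 0.317).

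Among 19 transporters of sodium, protons, calcium, chloride and bicarbonate, 1 rose and 3 fell, beside 19.9% of all probe sets that passed. Slc4a10, which brings bicarbonate into neurons and choroid plexus cells with sodium, stood at 9.06 and 9.01 on control trained and at 8.27 and 8.80 on control naive arrays. The alcohol arrays ran from 7.99 through 8.22 to 8.51, and control naive replicate 1 lay among them. The log2 difference was -0.58 (SE 0.11, adjusted p = 0.00182). Slc4a4, the bicarbonate cotransporter of astrocytes, fell by 0.25 (adjusted p = 0.0352), but its second probe set stood at 0.29 (adjusted p = 0.122), with the opposite sign. The sodium-calcium exchanger Slc8a1 fell by 0.25 (adjusted p = 0.0419), and the neuronal anion exchanger Slc4a3 rose by 0.24 (adjusted p = 0.0132). The chloride extruder Slc12a5 stood at 0.16 (adjusted p = 0.239) and the chloride importer Slc12a2 at -0.17 (adjusted p = 0.406).

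The Slc25 family, classed here as mitochondrial carriers, gave 5 rises and 0 falls among 24, with a median of 0.05. Of all probe sets 19.9% passed, 11.3% higher and 8.61% lower, so the count is no result about this class. The 5 were Slc25a42, which imports coenzyme A (0.29, SE 0.08, adjusted p = 0.0162), the aspartate-glutamate carrier Slc25a12 (0.29, adjusted p = 0.0286), the citrate carrier Slc25a1 (0.25, adjusted p = 0.0225), the ADP/ATP carrier Slc25a4 (0.22, adjusted p = 0.0188, 7 of 8 arrays) and the phosphate carrier Slc25a3 (0.16, adjusted p = 0.0461). Their alcohol arrays did not overlap with control arrays for Slc25a42 (7.29 to 7.53 against 6.86 to 7.26), Slc25a12 (8.16 to 8.47 against 7.85 to 8.13) and Slc25a1 (7.57 to 7.84 against 7.35 to 7.55). The ADP/ATP carrier Slc25a5 stood at -0.04 (adjusted p = 0.669).

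None passed among 17 metal transporters, 18 nucleoside, nucleotide sugar and acetyl-CoA transporters, 18 transporters of phosphate, sulphate, organic ions, lipids and vitamins, 9 sugar and monocarboxylate transporters, or 3 urea and lysosomal-type carriers. In these classes 1, 2, 1, 0 and 1 genes, in that order, had an unadjusted p under 0.05. Of all probe sets 19.9% passed and 33.6% had an unadjusted p under 0.05. These counts hold for the 1 probe set chosen per gene. Second probe sets of Slc2a3 (0.42, adjusted p = 0.0214), Slc23a2 (0.33, adjusted p = 0.0486) and Slc35a1 (0.32, adjusted p = 0.0247) did pass, and further probe sets of other genes in these classes did not. The vesicular zinc transporter Slc30a3 differed by 0.11 (adjusted p = 0.211), the neuronal glucose transporter Slc2a3 by 0.11 (adjusted p = 0.467), the lactate transporters Slc16a1 and Slc16a7 by -0.03 (adjusted p = 0.832) and -0.17 (adjusted p = 0.352), and the nucleotide sugar transporter family member Slc35b1 by 0.02 (adjusted p = 0.842).

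**Figure D2:**
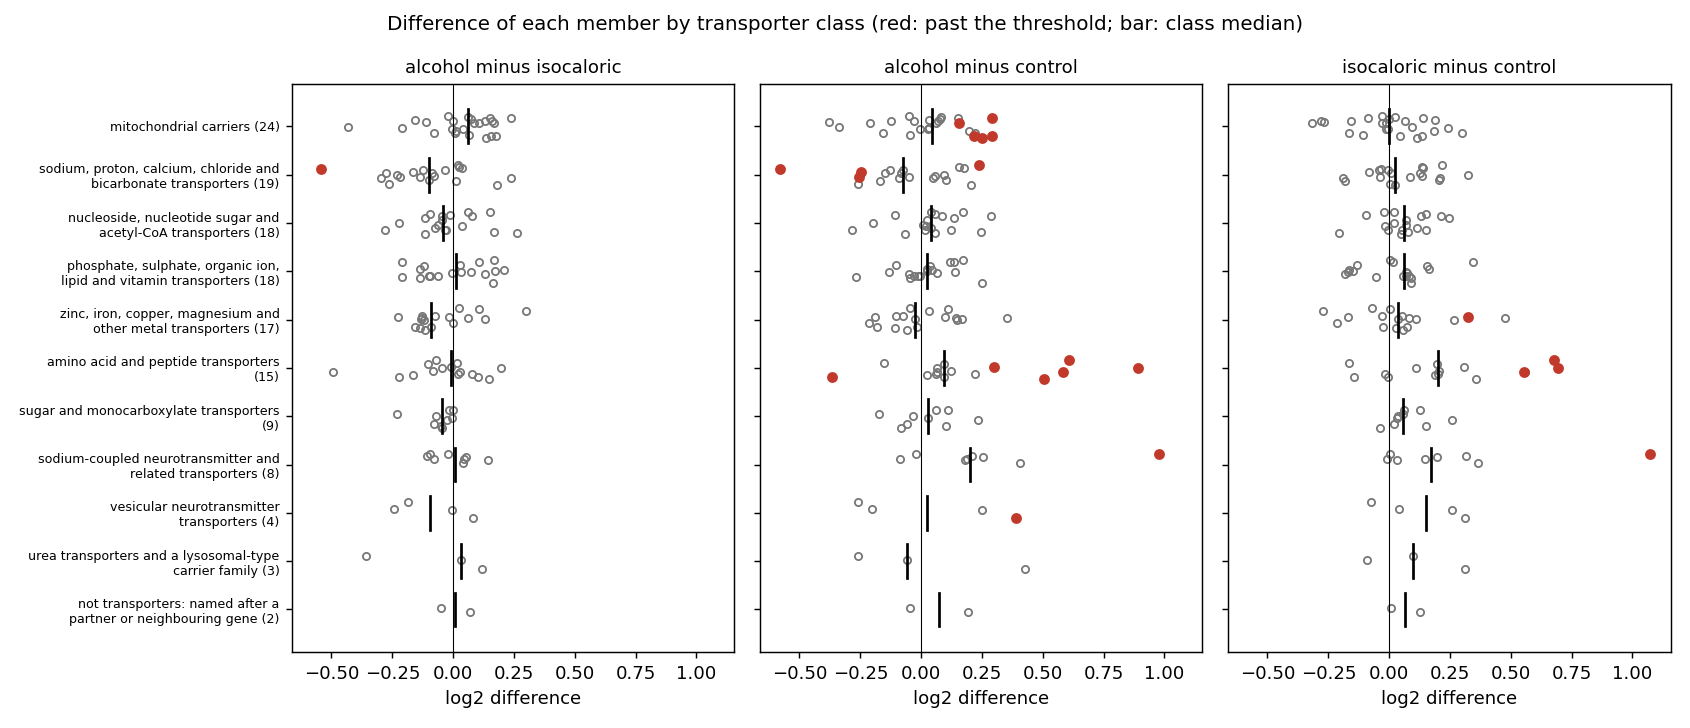
Log2 difference of each of the 137 genes, by transporter class (number of genes in brackets), in the 3 diet comparisons; filled red points passed the adjusted p of 0.05 and black bars are class medians. Against the control diet the amino acid class holds 6 red points for alcohol and 3 for the isocaloric diet, and alcohol against isocaloric has 1 red point in all.

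Without overlap between groups, 6 of the 137 genes were higher on the alcohol than on the control arrays and 0 lower (3.98% and 2.39% of all probe sets, 6.38% together): Slc6a6, Slc3a1, Slc7a1, Slc25a42, Slc25a1 and Slc25a12. All 4 measured endothelial and mural markers rose beside them, Cldn5 by 1.39 (adjusted p = 9.9e-09), Esam by 1.07, Flt1 by 0.79 and Rgs5 by 0.60. The mean of these markers on control arrays lay near the filter limit, as given above. The part of capillary cells in the rises of Slc6a6, Slc7a1 and Slc7a5 was not tested. The difference between the diets rests on 4 control arrays. Slc6a6, Slc7a1, Slc7a5, Slc3a1 and Slc4a10, 5 of the 17, kept their call whichever 1 of the 18 arrays was left out, with a highest adjusted p of 0.00704, 0.0204, 0.013, 0.00757 and 0.0222.

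The other 12 lost it at least once. Leaving out control naive replicate 2 ended the calls on Slc15a2 (adjusted p = 0.0722), Slc17a7 (0.122), Slc25a42 (0.0644), Slc4a3 (0.0839), Slc25a1 (0.142), Slc25a12 (0.186), Slc38a3 (0.115), Slc4a4 (0.233), Slc8a1 (0.224), Slc38a10 (0.302) and Slc25a3 (0.139). Leaving out control trained replicate 1 ended those on Slc17a7 (0.0622), Slc25a42 (0.106), Slc4a3 (0.0782), Slc25a1 (0.0948), Slc25a12 (0.11), Slc25a4 (0.0608), Slc38a3 (0.0663), Slc4a4 (0.102), Slc8a1 (0.099), Slc38a10 (0.14) and Slc25a3 (0.215). Leaving out control trained replicate 2 ended those on Slc25a1 (0.0532), Slc25a12 (0.0621), Slc25a4 (0.0731), Slc38a3 (0.0701), Slc4a4 (0.0967), Slc8a1 (0.129), Slc38a10 (0.106) and Slc25a3 (0.0606). Alcohol naive replicate 3 ended the call on Slc25a12 (0.0504), and alcohol trained replicate 4, alcohol naive replicate 2 and alcohol naive replicate 4 each ended that on Slc4a4 (0.0573, 0.0587 and 0.0586). The calls on Slc8a1, Slc38a10 and Slc25a3 lay close to the threshold and were lost without any 1 of 10, 13 and 15 of the 18 arrays. Leaving out a control array leaves 1 array in its group. More genes passed without control naive replicate 1 than in the full fit, and fewer without each other control array. The share of all probe sets in these fits is not given here, so such shifts are no result about solute carriers. Without the 2 arrays with a MAS5 note, which leaves 1 array in each control group, the differences were 1.36 for Slc6a6, 0.70 for Slc7a1, 0.60 for Slc7a5, 1.21 for Slc3a1 and -0.72 for Slc4a10.

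**Figure D3:**
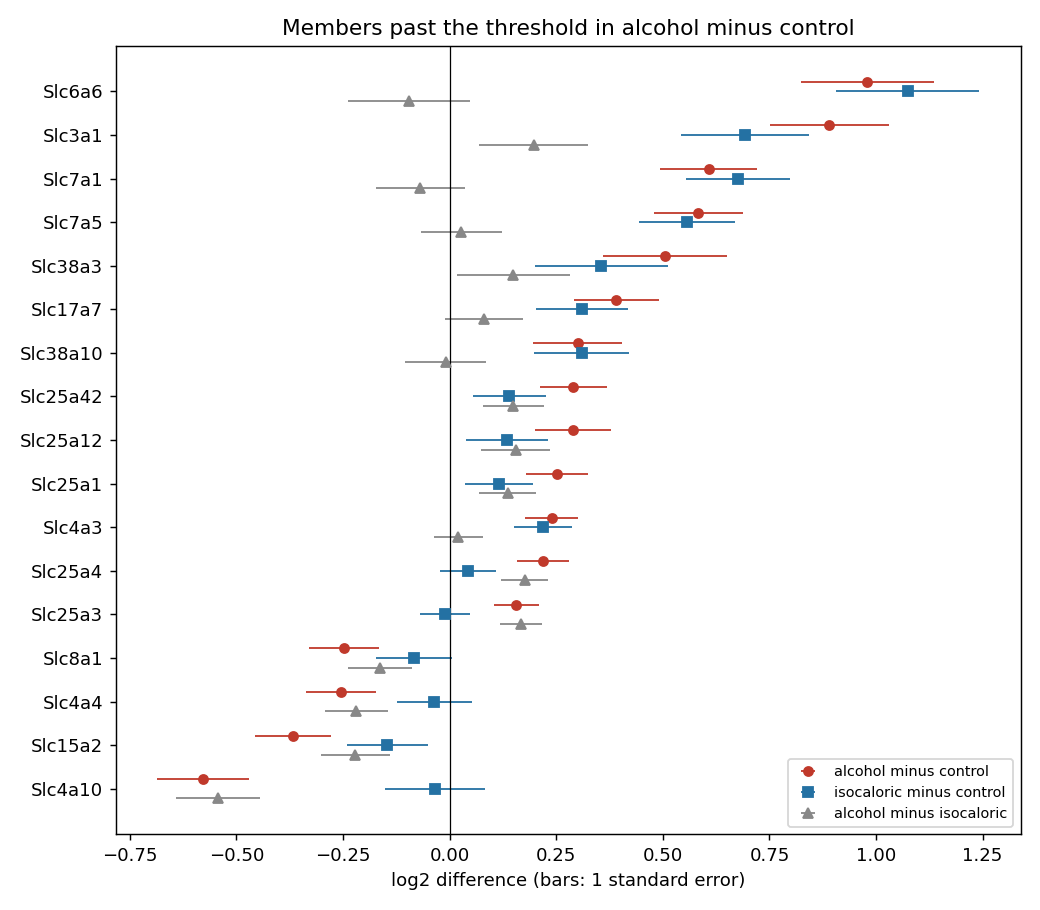
Log2 difference with 1 standard error for the 17 genes past the threshold between the alcohol and the control diet, beside the same genes for the isocaloric against the control diet and for alcohol against isocaloric. Slc6a6, Slc3a1, Slc7a1 and Slc7a5 lie between 0.56 and 1.07 in both comparisons with the control diet, and Slc4a10 lies at -0.58 and -0.54 in both comparisons of the alcohol diet.

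Between the isocaloric and the control diet, the comparison without the alcohol diet, the highest differences were again those of amino acid and taurine transporters. At the same threshold 5 of the 137 genes rose and 0 fell, 3.65%, against 7.05% of all probe sets (4.24% higher, 2.8% lower), and the median difference was 0.06 against 0.02. Slc6a6 rose by 1.07 (SE 0.17, adjusted p = 0.0017), Slc7a1 by 0.68 (SE 0.12, adjusted p = 0.00571), Slc3a1 by 0.69 (SE 0.15, adjusted p = 0.0133) and Slc7a5 by 0.56 (SE 0.11, adjusted p = 0.00934). The control arrays are shared with the comparison above, so the values stand side by side and are not independent of it.

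The remaining gene was Slc39a10, a zinc importer, which stood at 8.18 and 8.26 on control trained and at 8.09 and 8.01 on control naive arrays. Its isocaloric arrays ran from 8.37 through 8.43 to 8.59, all above the control arrays, while the alcohol arrays spread from 7.89 to 8.52 over both. It rose by 0.33 (SE 0.09, adjusted p = 0.0359). For all 5, 6 of 6 isocaloric arrays lay above the control mean of the same training state, and they did not overlap with the control arrays. With Slc4a3 (0.22, adjusted p = 0.0553) this made 6 genes higher without overlap, and 1 gene was lower without overlap (3.49% and 2.36% of all probe sets, 5.85% together). An unadjusted p under 0.05 was reached by 21 genes and by 25.1% of all probe sets. Slc17a7 differed by 0.31 (SE 0.11, adjusted p = 0.0833), while its second probe set rose by 0.76 (SE 0.14, adjusted p = 0.00665). The second probe sets of Slc6a6 and Slc7a1 rose as well, by 0.44 (adjusted p = 0.0239) and 0.93 (adjusted p = 0.0017). Slc38a3 differed by 0.36 (adjusted p = 0.163), and Slc4a10 by -0.04 (95% confidence interval -0.28 to 0.21).

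Cldn5 (1.29), Esam (0.91), Flt1 (0.88) and Rgs5 (0.65) rose here too, and their part was not tested. Slc6a6 and Slc7a1 kept their call whichever array was left out. Slc7a5 lost it without isocaloric naive replicate 2 (adjusted p = 0.0662) or control naive replicate 2 (0.057), Slc3a1 without isocaloric naive replicate 2 (0.0743), control naive replicate 2 (0.107) or control trained replicate 1 (0.0795), and Slc39a10 without any 1 of 8 of the 18 arrays, the highest adjusted p being 0.171 without control naive replicate 2. The other 7 were isocaloric trained replicates 2, 3 and 4, both isocaloric naive arrays and both control trained arrays. The count was higher without control naive replicate 1 and without the 2 arrays with a MAS5 note. It was lower without control trained replicate 1, control naive replicate 2 or isocaloric naive replicate 2. Each of these fits leaves 1 array in a group, and the share of all probe sets in them is not given here. Centring every array on its median moved the median difference of all probe sets from 0.02 to -0.09, a shift of over 0.1, and gave 4 rises and 2 falls among the solute carriers in place of 5 and 0, with Slc39a10 at 0.22 (adjusted p = 0.132).

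The alcohol against the isocaloric diet gave 1 call among the 137 genes (0 rose and 1 fell, 0.73%), against 3.06% of all probe sets (1.47% higher and 1.59% lower). Slc4a10 fell by 0.54 (SE 0.10, adjusted p = 0.0083). Its isocaloric arrays ran from 8.55 through 8.64 to 9.02, and all 8 alcohol arrays, with a highest value of 8.51, lay below them. The difference was -0.47 (SE 0.12, adjusted p = 0.104) among trained and -0.62 (SE 0.15, adjusted p = 0.122) among naive samples, and neither passed on its own. The call was lost without isocaloric naive replicate 1 (-0.47, adjusted p = 0.092), and with the ratio of 3′ to 5′ Gapdh signal, a sign of RNA quality, as a covariate (-0.51, adjusted p = 0.0805). That log2 ratio had a median of 0.23 on alcohol, 0.14 on isocaloric and 0.24 on control arrays, and its part in the result was not tested further.

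For the amino acid transporters that rose against the control diet, the difference between alcohol and isocaloric arrays was -0.10 for Slc6a6 (95% confidence interval -0.39 to 0.20), -0.07 for Slc7a1 (-0.29 to 0.15), 0.03 for Slc7a5 (-0.17 to 0.23) and 0.20 for Slc3a1 (-0.07 to 0.46). None of these passed. The intervals reflect only how these samples vary, and a difference as large as their ends remains possible. Mitochondrial carriers had a median of 0.06 in this comparison, with 17 of 24 above 0, and the ion transporters a median of -0.10, with 6 of 19 above 0, beside a median of -0.02 over all probe sets. These counts of signs were not tested.

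The genes nearest the threshold did not pass. They were the phosphate carrier Slc25a3 at 0.17 (adjusted p = 0.0644), the pyrimidine nucleotide carrier Slc25a36 at -0.21 (0.0706), the mitochondrial basic amino acid carrier Slc25a29 at 0.24 (0.0747), the ADP/ATP carrier Slc25a4 at 0.18 (0.0842), the urea transporter Slc14a2 at -0.36 (0.0895) and the zinc importer Slc39a10 at -0.23 (0.0995). Slc25a29 ran from 7.35 to 7.59 on alcohol and from 7.08 to 7.29 on isocaloric arrays, and Slc25a36 from 8.08 to 8.24 on alcohol and from 8.25 to 8.43 on isocaloric arrays, both without overlap. In all, 1 gene was higher and 2 lower without overlap, against 0.651% and 0.63% of all probe sets (1.28% together), and 24 had an unadjusted p under 0.05, against 21.7% of all probe sets.

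This count moved with the scaling. With arrays centred on their medians, 6 genes rose and 1 fell in place of 0 and 1, and quantile normalisation gave 1 rise and 2 falls. Leaving out alcohol trained replicate 2 gave 2 calls, alcohol naive replicate 4 gave 3, control naive replicate 1 or 2 gave 5 and isocaloric naive replicate 1 gave 0. Within trained samples alone 0 of 137 passed, where 0.399% of all probe sets did (0.305% higher, 0.0945% lower), and 16 genes had an unadjusted p under 0.05 (14.7% of all probe sets), the nearest after Slc4a10 being Slc4a4 at -0.32 (adjusted p = 0.132) and Slc49a4 at -0.31 (0.173). Within naive samples 0 passed as well, where 0.0735% of all probe sets did, and 14 had an unadjusted p under 0.05 (12.4% of all probe sets), the nearest after Slc4a10 being Slc25a3 at 0.27 (0.188) and the mitochondrial sodium-calcium exchanger Slc8b1 at -0.60 (0.2).

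No solute carrier passed the threshold for training. Between trained and naive samples, averaged over the 3 diets, 0 of 137 genes passed in limma, beside 0.0105% of all probe sets, 1 in number. An unadjusted p under 0.05 was reached by 11 of the 137, beside 5.95% of all probe sets. The nearest were Slc7a5 at -0.27 (SE 0.09, adjusted p = 0.756, 9 of 10 trained arrays below the naive mean of their own diet), the potassium-dependent sodium-calcium exchanger Slc24a2 at 0.23 (adjusted p = 0.757), the glucose 6-phosphate carrier Slc37a1 at -0.27 (0.757) and Slc17a6 at -0.34 (0.757).

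By diet, Slc7a5 stood lower in trained arrays of the alcohol diet, 6.20 to 6.75 against 6.83 to 7.09, and of the isocaloric diet, 6.38 to 6.60 against 6.92 and 7.01, without overlap in either. The gene was named for its small p, and the share of all probe sets without overlap was not counted here. In control arrays Slc7a5 was 6.20 and 6.13 in trained and 6.25 and 6.10 in naive samples. The differences were -0.33 (SE 0.12, adjusted p = 0.477), -0.47 (SE 0.15, adjusted p = 0.507) and -0.00 (SE 0.17, adjusted p = 0.993), and none passed. Slc17a6 stood at -0.39 (SE 0.17), -0.73 (SE 0.21) and 0.09 (SE 0.24) in the same order.

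Within single diets 0 genes passed in each. On the alcohol diet, where 0% of all probe sets passed and 12 genes had an unadjusted p under 0.05 (8.59% of all probe sets), the nearest was the vitamin C transporter Slc23a2 at -0.47 (adjusted p = 0.368). On the isocaloric diet, also with 0% of all probe sets and with 8 genes at that unadjusted level (7.12% of all probe sets), it was Slc8b1 at -0.75 (adjusted p = 0.275), which stood at 5.88 to 6.39 in trained and at 6.71 and 7.05 in naive samples. On the control diet, with 0.0315% of all probe sets (0.0105% higher, 0.021% lower) and with 9 genes at the unadjusted level (10.9%), it was Slc24a2 at 0.64 (adjusted p = 0.176), followed by Slc6a6 at 0.92 (adjusted p = 0.202). Both rest on the control naive arrays, 9.17 and 8.62 for Slc24a2 and 6.69 and 5.47 for Slc6a6.

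Without control naive replicate 1, Slc24a2 stood at 0.92 and Slc6a6 at 1.53 on the control diet, and at 0.32 and 0.51 in the average over diets. That fit leaves control naive replicate 2 alone in its group. The difference in training response between the alcohol and the isocaloric diet passed for 0 of 137 genes (0% of all probe sets), and 5 had an unadjusted p under 0.05 (4.21% of all probe sets), the nearest being Slc8b1 at 0.67 (SE 0.23, adjusted p = 1).

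**Figure D4:**
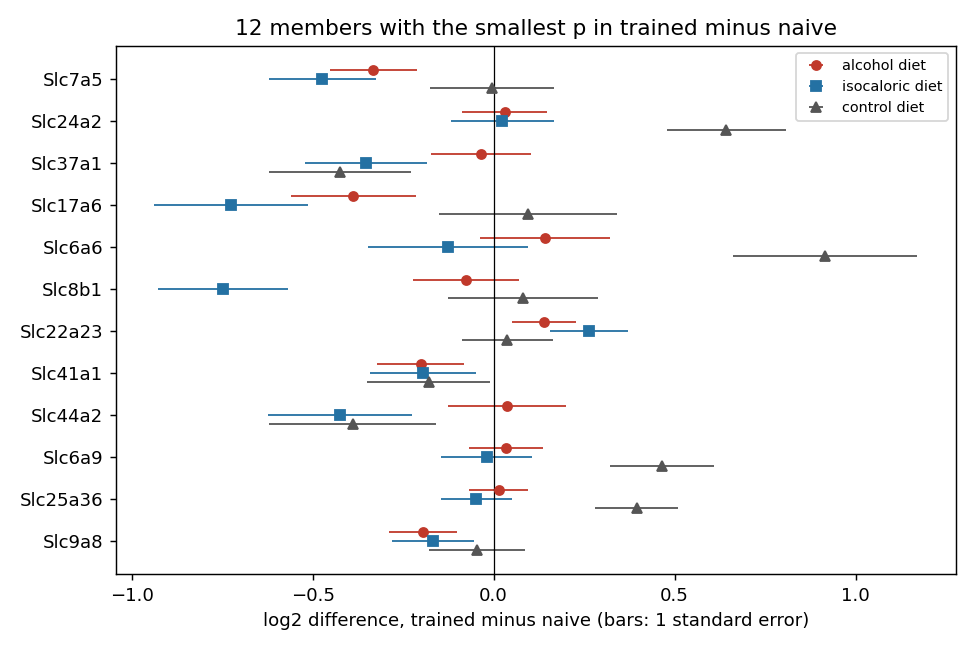
Log2 difference between trained and naive samples, with 1 standard error, for the 12 genes with the smallest p in the average over diets, drawn for each diet. No value passed the threshold, and Slc7a5 lies at -0.33 and -0.47 in the alcohol and isocaloric diets and at -0.00 in the control diet.

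On the 4 arrays with the highest signal of Ttr, the choroid plexus transcript, 4 of the 137 genes (2.92%) stood above all 12 arrays without raised Ttr, and 0 stood below them. Of all probe sets 0.536% stood above and 0.042% below. The 4 genes are named because of this gap. On the 4 arrays with the highest Ttr, the anion exchanger Slc4a2 stood at 7.89 to 8.59, against 6.33 to 6.67 on the 12 arrays without raised Ttr. The copper importer Slc31a1 stood at 7.42 to 8.06 against 6.35 to 6.82. The sulphate transporter Slc13a4 stood at 7.31 to 8.13 against 5.36 to 6.93, and the phosphate transporter Slc20a2 at 7.13 to 7.45 against 6.50 to 7.03. The other 2 arrays of raised Ttr did not stand as high, with Slc4a2 at 6.61 and 6.84, Slc31a1 at 6.51 and 6.57, Slc13a4 at 5.81 and 6.05 and Slc20a2 at 6.73 and 7.04. All but the upper values of Slc4a2 and Slc20a2 lay within the range of the 12 arrays. The groups of arrays were set apart by the Ttr signal itself, and the values are a description without a test.

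**Figure D5:**
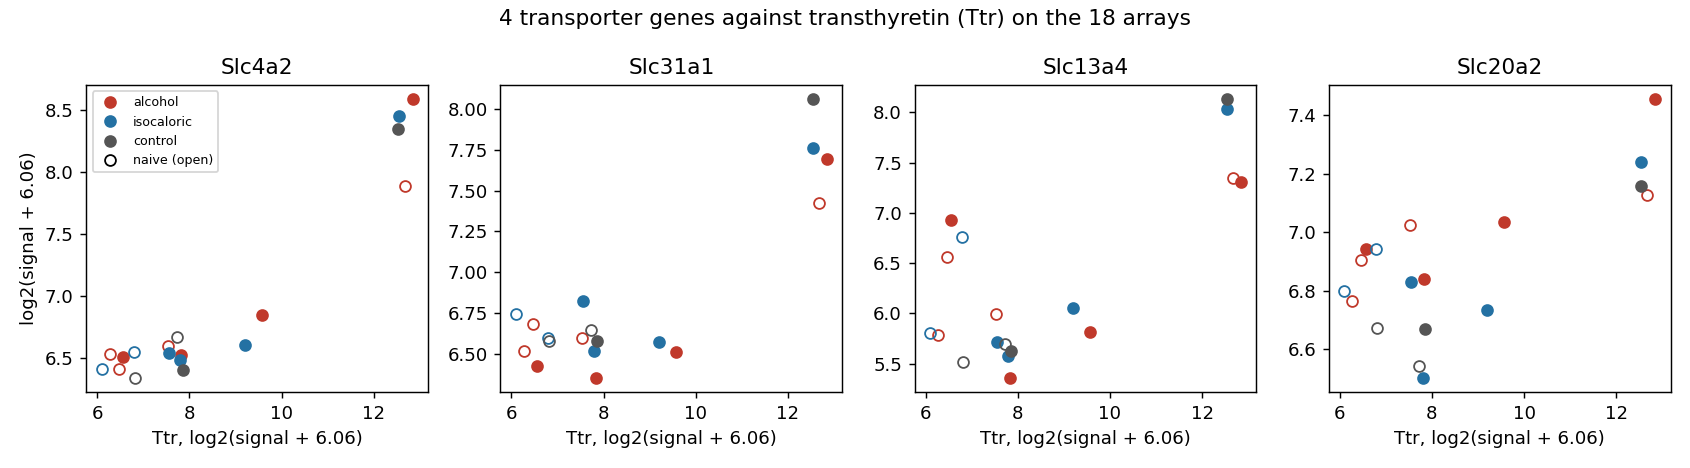
Log2 signal of Slc4a2, Slc31a1, Slc13a4 and Slc20a2 against that of Ttr on the 18 arrays, coloured by diet, filled for trained and open for naive samples. The 4 arrays with the highest Ttr lie above all 12 arrays without raised Ttr in each panel, and they come from all 3 diets.

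In the average over diets, the largest of the 137 training differences in size was that of Slc4a2, at 0.56 (SE 0.35, adjusted p = 0.906). Slc4a2 is 1 of the 4 genes named for the Ttr gap. Of the 4 arrays with the highest Ttr 3 were from trained samples, as were 10 of all 18 arrays, and their part in this difference was not tested. Within the control diet alone Slc13a4 stood further apart, at 1.27 (SE 0.80, adjusted p = 0.587). Without these 4 arrays, an alternative added after the data were seen that leaves control trained replicate 2 alone in its group, 5 of the 137 genes passed between the alcohol and the control diet, in place of 17. Slc6a6 then stood at 0.87 (adjusted p = 0.0256), Slc7a1 at 0.58 (0.0211), Slc7a5 at 0.59 (0.0219), Slc3a1 at 0.74 (0.0273) and Slc4a10 at -0.58 (0.0169). For isocaloric against control 2 passed, Slc6a6 at 0.98 (0.0465) and Slc7a1 at 0.73 (0.0189), and between alcohol and isocaloric Slc4a10 stood at -0.52 (0.038). Without all 6 arrays of raised Ttr, Slc7a1 alone passed against the control diet (0.59, adjusted p = 0.0494), with Slc6a6 at 0.85 (0.064), Slc3a1 at 0.67 (0.072), Slc7a5 at 0.53 (0.0568) and Slc4a10 at -0.53 (0.0517). No gene then passed between isocaloric and control or between alcohol and isocaloric, where Slc4a10 stood at -0.47 (0.172), and this fit holds 12 arrays.

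Genes that work beside the carriers were taken from lists of related functions. Between the alcohol and the control diet 19.9% of all probe sets passed, and the counts below were not tested against that share. Of 9 subunits and regulators of the sodium pump, whose gradient drives many carriers, 6 were measured and 0 passed between the alcohol and the control diet, with a median of 0.10. Of 17 subunits of the vacuolar proton pump, which energises vesicular uptake, 14 were measured, of which Atp6v0a1 rose by 0.50 (adjusted p = 0.00768) and Atp6v1d fell by 0.21 (adjusted p = 0.0444), with a median of 0.03. Of 9 enzymes of glutamate, glutamine and GABA metabolism, 8 were measured, and the aspartate aminotransferase Got1 (0.32, adjusted p = 0.0055) and the GABA-making enzyme Gad2 (0.47, adjusted p = 0.0111) rose. Of 10 partner proteins of carriers, 9 were measured, and Bsg, which escorts lactate transporters to the membrane, rose by 0.31 (adjusted p = 0.0209), while Arl6ip5, a regulator of the glutamate transporter Slc1a1, fell by 0.46 (adjusted p = 0.00258).

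Between the alcohol and the isocaloric diet, Got1 (0.28, adjusted p = 0.0263), its mitochondrial counterpart Got2 (0.19, adjusted p = 0.0448) and Bsg (0.35, adjusted p = 0.0266) rose, and no sodium or proton pump gene passed. Of all probe sets 3.06% passed there. Slc25a12, the carrier that works with these aminotransferases in the malate-aspartate shuttle, stood at 0.15 there and did not pass. The lactate transporters Slc16a1 and Slc16a7 stood at -0.07 (adjusted p = 0.676) and -0.23 (adjusted p = 0.244).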

How the data were processed

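The deposited values are 1 linear intensity per probe set and array. The submitters' processing notes name MAS5 for 2 samples; for the others the algorithm was not given in the sources used here. The trimmed mean of all arrays was 150, a shared scaling, so a change of total RNA cannot be seen. The number of arrays limits the precision.

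Values were analysed as log2(value + 6.06), the constant being their 10th percentile, which understates the change of dim genes. Probe sets under the 40th percentile of mean level (5.78) and 57 control probe sets were left out, which left 9520. A model of the 6 group means was fitted with limma 3.58.1 (lmFit, eBayes with a trend) under R 4.3.3. Tests were two-sided, with Benjamini-Hochberg adjustment over all probe sets tested and a threshold of 0.05. Averaged diet comparisons weight trained and naive samples equally. Tables were made with Python 3.11.15, pandas 2.3.3 and numpy 2.4.6, and plots matplotlib 3.10.9. The fit was tested on simulated data.

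All 137 genes matched RefSeq gene identifiers, with 0 symbols changed. Of these, 19 had more than 1 probe set past the filter. Named were, per averaged comparison, the 12 largest rises and 12 largest falls past the threshold (5 of each in other comparisons), up to 3 with the smallest p where fewer than 3 passed, and a list of transporters well known in brain. Other names (such as the genes nearest the threshold) were chosen after their values were seen. The genes and lists were chosen with earlier results of these data known. Marker lists covered choroid plexus, vessel, meningeal, glial, neuronal, thalamic, striatal and blood cells. Alternatives changed the constant, filter, scaling, weights, covariates, probe set rule and arrays used.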

Additional observations from a re-analysis of the deposited data

Results flagged for a closer look

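Among the named genes, 150 groups of 4 arrays were searched for an array far from the other 3, and 6 were found. Chance flags about 1 in 20 groups, so 6 of 150 is no more than chance would give. Each ratio is the gap to the nearest array divided by the range of the group, against a limit of 0.829. The bicarbonate transporter Slc4a10 was high on isocaloric trained replicate 3, at 8.83 against 8.55 to 8.56 on the others (ratio 0.962). The coenzyme A carrier Slc25a42 was low on alcohol naive replicate 4, at 7.34 against 7.46 to 7.47 (0.929), and so was the ADP/ATP carrier Slc25a5, at 10.73 against 10.91 to 10.94 (0.857). The bicarbonate transporter Slc4a7 was high on alcohol trained replicate 1, at 7.37 against 6.86 to 6.90 (0.919), and on isocaloric trained replicate 1, at 7.78 against 7.24 to 7.30 (0.886). The sodium-calcium exchanger Slc8a1 was low on alcohol naive replicate 2, at 6.77 against 6.96 to 6.99 (0.879).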

How the results depend on the processing

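Over 32 alternatives, the 17 calls between the alcohol and the control diet became 7 with array weights, 10 with a replicate block, 5 without the 4 arrays of highest Ttr (added after the data were seen) and 1 without all 6 arrays of raised Ttr, where the remaining call was Slc7a1 (0.59, adjusted p = 0.0494). The 5 calls between isocaloric and control became 9 with quantile normalisation, 17 without the arrays with a MAS5 note, 2 without the 4 Ttr arrays and 0 without the 6. The 1 call between alcohol and isocaloric became 3 with quantile normalisation, 7 with median centring, 5 with only the groups compared, 12 with array weights, 0 with the Gapdh ratio as a covariate, 5 without the MAS5 arrays and 0 without the 6 Ttr arrays. Array weights gave 6 calls between these diets in naive samples and 1 for training on the isocaloric diet, in place of 0. Without the MAS5 arrays 1 gene passed for training and 4 for training on the control diet. Leaving out 1 array at a time, the counts ran from 6 to 28 (alcohol against control), 2 to 21 (isocaloric against control), 0 to 5 (alcohol against isocaloric), 0 to 2 (training), 0 to 6 (training, control diet), 0 to 1 (alcohol against isocaloric, trained), 0 to 1 (naive), and 0 to 0 for training on the alcohol and isocaloric diets and its interaction. The fall of Slc4a4 against the control diet reversed to 0.0196 (adjusted p = 0.904) with the mean over its probe sets. The cause of these changes was not tested, and leaving out arrays leaves fewer samples. The share of all probe sets that passed in each alternative is not given beside these counts. A change of count is therefore no result about solute carriers. For 152 pairs of a named gene and a comparison, the direction and side of the threshold held in 4384 gene-by-alternative values. Calls were lost in 155 and gained in 66, and 203 values changed sign without a call before or after. The 36 pairs of arrays with the same replicate number had a median correlation of -0.03, beside 0.01 for other pairs. Their highest was 0.13, and 4 were over 0.1. The replicate block changed no direction of a call, and the labels do not say whether samples were paired.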

Other observations

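Further probe sets of solute carriers, which the choice of 1 probe set per gene left out, gave calls between the alcohol and the control diet where the chosen one did not: Slc24a3, a potassium-dependent sodium-calcium exchanger (0.46, adjusted p = 0.00355, against 0.18 and 0.177 for the chosen probe set), the neuronal glucose transporter Slc2a3 (0.42, adjusted p = 0.0214), the vitamin C transporter Slc23a2 (0.33, adjusted p = 0.0486), the CMP-sialic acid transporter Slc35a1 (0.32, adjusted p = 0.0247) and the creatine transporter Slc6a8 (0.28, adjusted p = 0.0289). All 5 were higher with the alcohol diet, and those of Slc2a3 (0.57, adjusted p = 0.0159) and Slc24a3 (0.35, adjusted p = 0.0496) also rose between the isocaloric and the control diet. They were picked for passing, and no count over the family was made from them.

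The remaining marker lists gave 9 calls among 55 measured genes between the alcohol and the control diet, 4 higher and 5 lower (16.4%, beside 19.9% of all probe sets). Of 11 measured astrocyte markers the water channel gene Aqp4 fell by 0.28, of 9 oligodendrocyte markers Cldn11 fell by 0.29, of 6 meningeal markers Lum fell by 0.45, of 8 interneuron markers Gad2 rose by 0.47, and of 2 blood markers Hbb fell by 0.56. Of 11 pyramidal and granule cell markers 4 passed: Hpca (0.56), Syn1 (0.45) and Nrgn (0.35) rose, as did the vesicular glutamate transporter Slc17a7 among the carriers, while Camk2a stood at -1.82 and fell. None of 3 thalamic and 5 striatal markers passed.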
